A study of Mus musculus with 2 samples.

Results

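The genes described here are 35 genes of glycolysis and of the transcriptional response to low oxygen, taken by symbol from the 28692 genes of both expression matrices. They comprise 15 glycolytic enzymes, 6 genes of glucose and lactate transport or of the regulation of glycolysis, 13 other targets of the hypoxia-inducible factor (HIF), and Hif1a, which encodes a HIF subunit. The list was chosen by function, but with earlier results of these data known. All 35 symbols were found in both libraries, and 30 reached 10 CPM (UMIs of a gene per 1000000 UMIs of the library) as the mean of both libraries. Slc2a3, Aldoc, Pfkfb4, Egln3 and Adm were below that level.

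The cells came from MC38, a mouse colon carcinoma line, taken as fresh tumours of C57BL/6 albino mice and cultured as spheroids in collagen inside a microfluidic chip. One culture received a control antibody (IgG, clone 2A3) and the other an antibody against the checkpoint receptor PD-1 (aPD-1, clone RMP1-14), each at 10 µg/mL, and tumour cells were sorted on day 6. Each group is 1 droplet-based 3′ single-cell library, so no difference between the groups has a replicate check, no test was possible, and every interval given is a 95% interval of counting error alone. Spheroids of a size fraction of dissociated tumours can hold host cells, and the labels do not say how many animals were used.

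Glycolysis splits glucose into pyruvate through a chain of cytosolic enzymes, and lactate dehydrogenase then turns pyruvate into lactate, which leaves the cell through monocarboxylate transporters. When oxygen is low, HIF prolyl hydroxylases stop marking the HIF alpha subunit for destruction, and the stabilised factor binds short hypoxia response elements with the core ACGTG or GCGTG. Its known targets include most glycolytic enzymes together with genes of mitophagy, angiogenesis, acid balance and collagen modification. HIF is controlled largely through the stability of its protein, which RNA counts do not show.

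Cells were kept at 5000 UMIs or more and at most 10% mitochondrial UMIs, which left 2198 cells and 49422640 UMIs in IgG and 3356 cells and 61462778 UMIs in aPD-1. The median depth was 20663 UMIs per cell in IgG and 16577 in aPD-1, the ribosomal protein share was 34.5% and 38.2%, and 8 cell barcodes occurred in both libraries. The epithelial markers Krt18, Cldn4 and Cldn7 had no UMI in either library, and the whole list of 8 epithelial markers summed to 0.627 and 0.244 CPM, so these cells lacked the usual epithelial transcripts of a colon carcinoma. Macrophage markers summed to 38.04 CPM in IgG against 12.6 CPM in aPD-1, and endothelial markers to 72.8 and 30.8 CPM. T and NK cell markers were near absent at 1.13 and 0.895 CPM. A list of 12 fibroblast markers summed to 1083 CPM in IgG against 702 CPM in aPD-1. Most of that sum was Dcn (462 and 326 CPM) and Col3a1 (296 and 187 CPM), while Thy1 and Lum were near absent. At least 5 of these UMIs were held by 1730 of 2198 IgG cells and 2166 of 3356 aPD-1 cells, so the sum does not measure fibroblast content. A cluster led by Gsn and Lbp had 3 fibroblast markers among its 10 leading genes. It took in 17.5% of the IgG library (15.9 to 19.1) against 4.68% of the aPD-1 library (3.99 to 5.45).

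The promoters of 32 of the 35 genes were found in RefSeq windows of build GRCm38.p6; Slc2a3, Bnip3l and Ndrg1 were not, and Ero1l is listed there under its newer symbol Ero1a. In the 250 bases before a start site, ACGTG or GCGTG on either strand was found for 30 of the 32 genes (93.8%), against 41.5% of the 27025 genes of the table. A gene counted if any of its start sites had a match. The 2 without a match were Gpi1 and Tpi1. All 11 other HIF targets with a window held the motif, as did 13 of the 15 enzymes. Hk1, Pfkm, Aldoa, Pkm, Pdk1 and Vegfa also had a start site without a match. The genes of the table were not matched to the members in expression, base content or number of start sites. The 160 bases before the start are shown for genes that followed the cell-to-cell pattern described further on, and for others that followed it little. Each motif is in capitals (overlapping matches run together). For a gene with several start sites, the window with the most matches is shown. The first 3 are HIF targets with large differences in level along an axis of cells ranked by summed HIF target UMIs. They are the mitophagy receptor gene Bnip3 (chr7:138909507-138909666, minus strand), the oxidoreductase gene Ero1l (chr14:45318573-45318732, minus strand) and Ankrd37 (chr8:45999851-46000010, minus strand).
Bnip3: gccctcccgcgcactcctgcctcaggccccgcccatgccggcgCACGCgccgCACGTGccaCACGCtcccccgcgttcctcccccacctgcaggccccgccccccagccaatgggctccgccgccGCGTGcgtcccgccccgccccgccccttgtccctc
Ero1l: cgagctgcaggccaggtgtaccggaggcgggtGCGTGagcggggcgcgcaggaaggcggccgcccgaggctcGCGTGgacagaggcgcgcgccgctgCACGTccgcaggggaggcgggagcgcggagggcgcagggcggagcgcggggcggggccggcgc
Ankrd37: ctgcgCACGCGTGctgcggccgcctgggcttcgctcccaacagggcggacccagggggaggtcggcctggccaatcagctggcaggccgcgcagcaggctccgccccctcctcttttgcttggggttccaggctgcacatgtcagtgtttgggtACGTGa
The Bnip3 window held 5 matches and the Ero1l and Ankrd37 windows held 3 each. In GENCODE M21, exons of other transcripts of the same genes cover 13, 30 and 17 bases of these windows.

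Next are 3 enzymes that followed the same axis: Aldoa (chr7:126799255-126799414, minus strand), Ldha (chr7:46845644-46845803, plus strand) and Pgk1 (chrX:106186940-106187099, plus strand). The Aldoa and Ldha windows belong to start sites inside the longest gene model, with no exon of the gene over them in GENCODE M21, and the Pgk1 window lies before the whole gene.
Aldoa: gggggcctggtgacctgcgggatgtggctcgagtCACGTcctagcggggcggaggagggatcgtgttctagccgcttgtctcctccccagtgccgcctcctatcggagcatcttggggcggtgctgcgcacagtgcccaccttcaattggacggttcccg
Ldha: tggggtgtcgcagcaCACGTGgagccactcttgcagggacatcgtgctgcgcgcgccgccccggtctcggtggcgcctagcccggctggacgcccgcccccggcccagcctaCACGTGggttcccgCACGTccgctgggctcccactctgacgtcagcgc
Pgk1: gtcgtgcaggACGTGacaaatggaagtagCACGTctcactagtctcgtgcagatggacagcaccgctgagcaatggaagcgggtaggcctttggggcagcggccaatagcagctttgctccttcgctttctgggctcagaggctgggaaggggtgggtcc
Ldha held 5 matches, Pgk1 2 and Aldoa 1.

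The last pair are Hk2 (chr6:82774455-82774614, minus strand), before the gene, and Hif1a (chr12:73907707-73907866, plus strand), at an internal start inside the gene. They are shown because they hold the motif and did not reach a 1.5-fold difference along that axis in either library.
Hk2: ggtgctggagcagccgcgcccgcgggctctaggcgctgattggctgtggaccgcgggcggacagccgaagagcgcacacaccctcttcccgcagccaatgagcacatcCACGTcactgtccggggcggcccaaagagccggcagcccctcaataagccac
Hif1a: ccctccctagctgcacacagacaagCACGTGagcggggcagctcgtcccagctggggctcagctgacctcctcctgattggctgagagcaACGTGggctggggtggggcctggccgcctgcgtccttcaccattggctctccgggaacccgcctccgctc
Hk2 held 1 match and Hif1a 3. A match is a string of letters in these windows and says nothing about binding in these cells.

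The levels of the 35 genes spanned a wide range, from Slc2a3, which encodes a high-affinity glucose transporter and had 9 UMIs in all IgG cells and 14 in all aPD-1 cells, to Gapdh. In 3′ libraries each transcript is counted once whatever its length, so CPM can be set side by side between genes, within the limits of how well each 3′ end is captured. The enzymes summed to 8322 CPM in IgG against 7456 CPM in aPD-1, and the 13 other HIF targets to 1468 and 1334 CPM. Gapdh, the glyceraldehyde phosphate dehydrogenase, had 2784 and 2787 CPM.

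Of the UMIs of the glucose transporter genes Slc2a1 and Slc2a3 together, Slc2a1 made up 99.4% (IgG) and 99.2% (aPD-1). Slc2a1, the basal glucose transporter GLUT1, had 27.9 CPM in IgG against 26.6 CPM in aPD-1, levels whose counting intervals overlapped (ratio 0.954, 0.888 to 1.03). Slc16a3, the lactate exporter MCT4, was more abundant at 192.6 and 162.8 CPM and was lower in aPD-1 (ratio 0.845, 0.822 to 0.869).

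Among the enzymes of the upper pathway, Hk2, the inducible hexokinase of many tumours, had 197 CPM in IgG against 138 CPM in aPD-1. Hk1, the constitutive hexokinase, had 25.7 and 26.3 CPM, so Hk2 supplied 88.5% of the pair's UMIs in IgG (87.9 to 89.1) and 84.0% in aPD-1 (83.2 to 84.7). The hexokinase mix thus differed more between libraries than that of the other enzyme families compared (phosphofructokinase, aldolase, lactate dehydrogenase and enolase). Gpi1, the glucose phosphate isomerase, had 250 and 249 CPM. The 3 phosphofructokinase genes kept nearly the same proportions: Pfkl, the liver form, made up 53.3% and 52.2% of their UMIs, Pfkp, the platelet form, 33.8% and 34.5%, and Pfkm, the muscle form, 12.97% and 13.4%. Aldolase was almost all Aldoa, at 763 and 665 CPM, with only 23 UMIs of Aldoc in each library.

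Gapdh, Pkm, Ldha and Tpi1 were the most abundant members in both libraries. Tpi1, the triose phosphate isomerase, had 872 and 769 CPM, and Pgam1, the phosphoglycerate mutase, 597 and 515 CPM. Pkm, the pyruvate kinase, had 1031 CPM in IgG against 785 CPM in aPD-1. Ldha, the lactate dehydrogenase subunit that favours lactate formation, had 968 and 858 CPM and made up 93.7% and 94.7% of Ldha and Ldhb UMIs. Eno1, the main enolase, had 641 and 511 CPM. Pgk1, the phosphoglycerate kinase, stood apart with only 90.6 and 70.2 CPM. Gapdh, Aldoa, Tpi1, Pgk1, Pgam1, Eno1, Pkm and Ldha belong to families with many near-identical processed copies, and reads that fit several copies could have been split or lost in the authors' counting, so their absolute levels are uncertain.

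The regulators of flux were rare transcripts. Pfkfb3, which makes the activator of phosphofructokinase, had 20.7 CPM in IgG against 14.0 CPM in aPD-1, and its relative Pfkfb4 had 6.96 and 8.28 CPM. Pfkfb3 therefore made up 74.9% of their shared UMIs in IgG (72.5 to 77.1) and 62.8% in aPD-1 (60.2 to 65.4). Pdk1, which holds pyruvate back from mitochondria by phosphorylating pyruvate dehydrogenase, had 29.0 and 30.6 CPM.

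Of the other HIF targets, Ddit4, an inhibitor of mTOR signalling that several stresses induce, was the most abundant in IgG at 290 CPM and had 170 CPM in aPD-1. Ndrg1, a stress-induced gene, had 284 and 312 CPM, and Ero1l, which drives disulphide bond formation in the endoplasmic reticulum, 261 and 256 CPM. The mitophagy receptors Bnip3 and Bnip3l stood at 137 and 150 CPM in IgG and at 139 and 142 CPM in aPD-1. Ankrd37 had 100 and 91.9 CPM. The collagen prolyl hydroxylase P4ha1 had 82.6 and 73.4 CPM and P4ha2 47.3 and 31.1 CPM. Vegfa, the angiogenic factor, had 59.7 and 58.1 CPM, Car9, the membrane carbonic anhydrase, 21.6 and 20.5 CPM, and the peptide hormone gene Adm only 37 UMIs in each library. Among the HIF prolyl hydroxylases, Egln1 had 28.3 CPM in IgG against 35.4 CPM in aPD-1, and Egln3 5.34 and 5.17 CPM. Hif1a itself had 40.5 and 35.3 CPM.

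**Figure D1:**
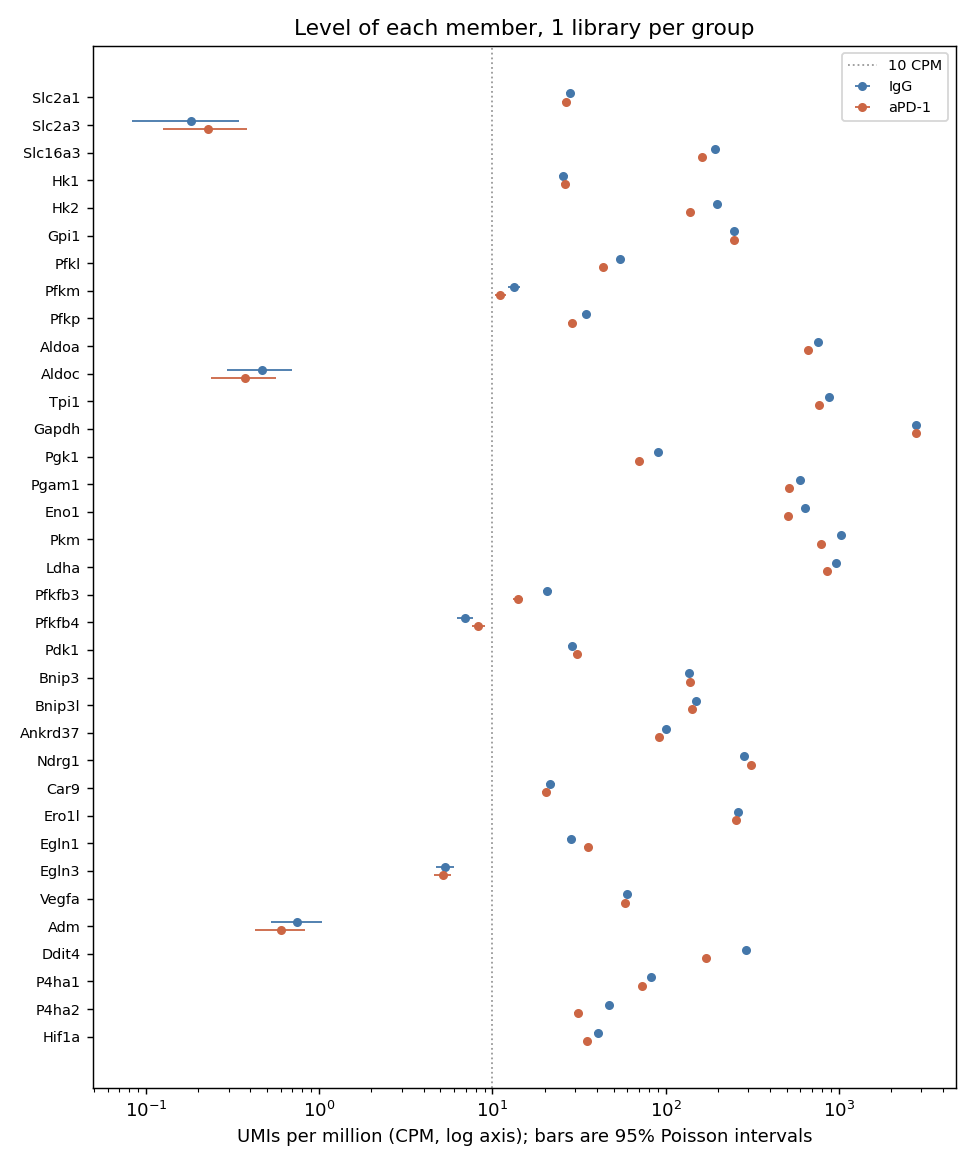
Level of each of the 35 genes in the IgG and aPD-1 libraries, in CPM on a log axis, with 95% Poisson intervals as bars and a dotted line at 10 CPM. Gapdh stands highest at 2784 and 2787 CPM, and Slc2a3, Aldoc, Pfkfb4, Egln3 and Adm lie below the line.

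The comparison of aPD-1 with IgG asks how residual tumour cells under PD-1 blockade differ from control cells. Most of the 30 members of at least 10 CPM were lower in aPD-1, 24 of 30, but so were 4678 of all 6967 genes at that level, and ribosomal protein genes took a larger share of aPD-1 UMIs. The median log2 ratio over all genes was -0.10. Members were counted as lower or higher at a ratio of at least 1.25-fold with a counting interval off 1. By this rule 8 of 30 were lower (26.7%, against 17.2% of all genes) and 1 was higher (3.33%, against 3.9% of all genes). At 1.5-fold, 2 were lower (6.67%, against 3.01%) and 0 higher (against 0.531%). The fold limits were chosen after values were seen, and with 1 library a group these counts describe the libraries.

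The 8 lower members were 5 enzymes (Hk2, Pfkl, Pgk1, Eno1 and Pkm), the regulator Pfkfb3, and the HIF targets Ddit4 and P4ha2. Ddit4 was lowest, with a ratio of 0.586 (0.571 to 0.601), followed by P4ha2 at 0.659 (0.620 to 0.700), Pfkfb3 at 0.676 (0.617 to 0.741) and Hk2 at 0.698 (0.678 to 0.719). Pkm stood at 0.761 (0.751 to 0.770), Pgk1 at 0.775 (0.743 to 0.808), Pfkl at 0.795 (0.753 to 0.839) and Eno1 at 0.798 (0.785 to 0.810). With ribosomal and mitochondrial genes left out of the denominator, 4 of these enzymes no longer passed the limit, with Pkm at 0.817, Pgk1 at 0.832, Pfkl at 0.853 and Eno1 at 0.856, nor did they with the median of all genes set to 0. Hk2, Pfkfb3, Ddit4 and P4ha2 passed under both scalings. Egln1, which hydroxylates HIF alpha, was the single higher member at 1.25 (1.17 to 1.34), just past the limit, and stood at 1.24 with a floor of 10000 UMIs and at 1.18 with at most 5% mitochondrial UMIs. Gapdh, often used as a reference gene, differed by less than its counting error (ratio 1.001, 0.994 to 1.01), as did Gpi1 (0.995, 0.972 to 1.02), Hk1 (1.02, 0.950 to 1.10) and Bnip3 (1.01, 0.979 to 1.04).

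Enzymes and other HIF targets differed in their median ratio in this comparison, while their full sums were close. The median log2 ratio was -0.21 over the 15 enzymes and -0.07 over the 13 other HIF targets, beside -0.10 over all genes. The summed enzymes stood at 0.896 times the IgG level (0.892 to 0.900), and at 0.843 (0.839 to 0.847) with the abundant Gapdh left out. The summed HIF targets stood at 0.909 (0.900 to 0.918), but that difference lay almost wholly in Ddit4. Without Ddit4 the sum was at 0.989 (0.978 to 0.9997), and without Ddit4 and P4ha2 at 1.003 (0.992 to 1.01). Gapdh, Ddit4 and P4ha2 were left out after their values were seen. Each of these steps widens the gap between the sums, and no low enzyme was left out in turn. The HIF target median changed sign, to 0.03 on the log2 scale, when ribosomal and mitochondrial genes were left out of the denominator or the median of all genes was set to 0, and the enzyme median came to -0.11 and -0.12. Without the 35 IgG and 13 aPD-1 cells that held 5 or more macrophage or endothelial UMIs, the medians were -0.22 for enzymes and -0.04 for HIF targets, and Adm, with its few UMIs, moved from a ratio of 0.804 to 1.31.

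**Figure D2:**
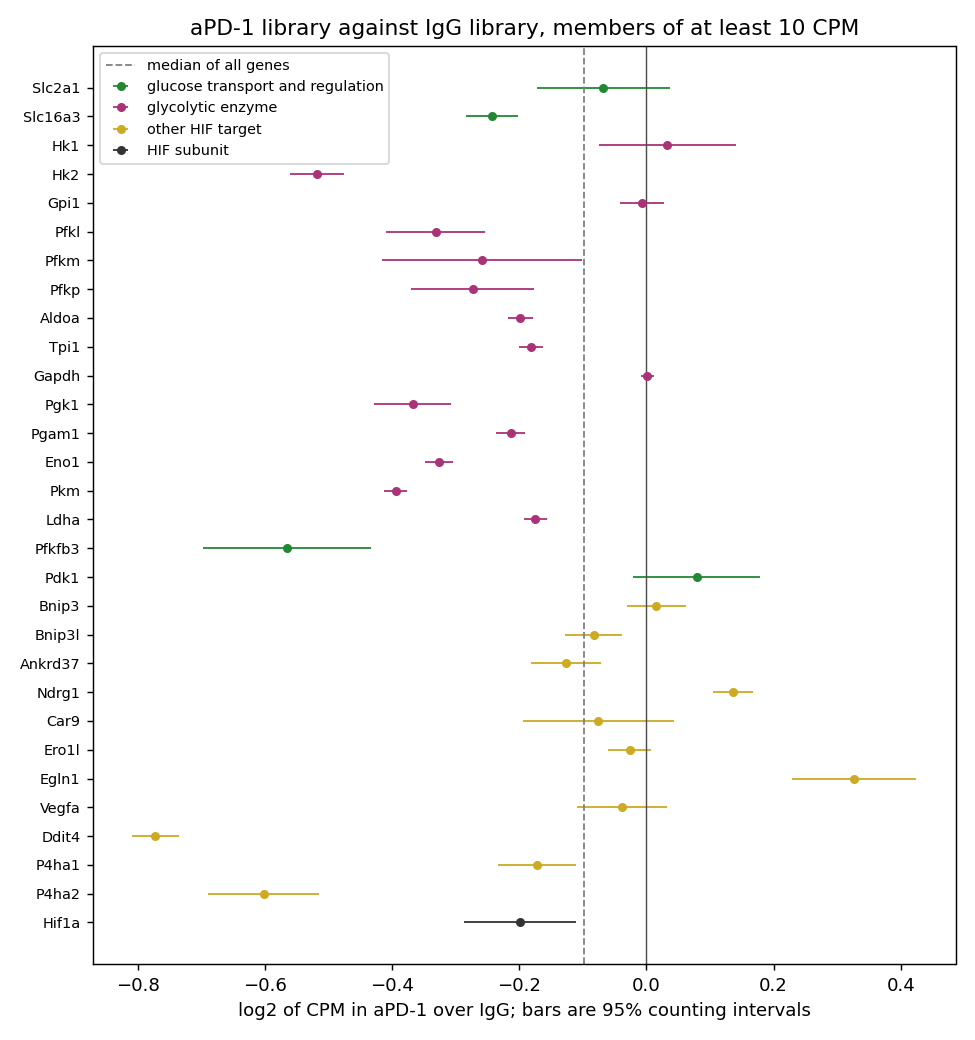
The log2 ratio of aPD-1 over IgG for the 30 members of at least 10 CPM, coloured by role, with 95% counting intervals as bars, a solid line at 0 and a dashed line at the median of all genes (-0.10). Ddit4, P4ha2, Pfkfb3 and Hk2 lie farthest to the left and Egln1 farthest to the right, while Gapdh, Gpi1, Hk1 and Bnip3 lie at 0.

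Cells of a library were then compared with each other. Each cell was thinned to 5000 UMIs, so that depth was equal, and cells were ranked within their library by the summed UMIs of the 13 other HIF targets. That sum ranged from a 10th percentile of 1 UMI to a 90th percentile of 17 (IgG) or 16 UMIs (aPD-1), with medians of 6 and 5. Cells with 20 or more such UMIs made up 6.60% of IgG cells (5.59 to 7.72) and 5.39% of aPD-1 cells (4.65 to 6.21). Cells with 0 made up 3.50% (2.77 to 4.36) and 2.83% (2.30 to 3.45).

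Deciles hold 10% of the cells of a library each. The glycolytic enzymes, which had no part in the ranking, followed it. In the lowest decile of IgG cells they summed to 5562 CPM and in the highest decile to 14644 CPM, a ratio of 2.63 (2.56 to 2.71). In aPD-1 the same deciles held 5363 and 11758 CPM, a ratio of 2.19 (2.14 to 2.25). The gap between libraries was widest at the high end. Taken over all UMIs of the cells, not the thinned ones, the summed enzymes in aPD-1 stood between 0.889 and 1.01 times IgG in deciles 1 to 8, at 0.803 (0.793 to 0.813) in decile 9 and at 0.826 (0.817 to 0.835) in the highest. Cells with 20 or more HIF target UMIs had 15821 CPM of enzymes in IgG and 13024 CPM in aPD-1.

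Cell cycle genes ran the other way along the same axis. Summed G2/M genes stood at 4545 CPM in the lowest decile and 1952 CPM in the highest in IgG, and at 4161 and 1952 CPM in aPD-1. The S phase genes stood at 2063 and 721 CPM in IgG and at 1870 and 636 CPM in aPD-1. The share of cells in the Gsn-led cluster moved with the axis too, from 7.27% to 26.9% in IgG and from 2.98% to 7.76% in aPD-1. Without that cluster the enzyme contrast was smaller but kept its direction, at a log2 of 1.20 against 1.40 in IgG and 1.05 against 1.13 in aPD-1. Among cells below the median of the cell cycle genes it was larger, at 1.68 and 1.36.

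**Figure D3:**
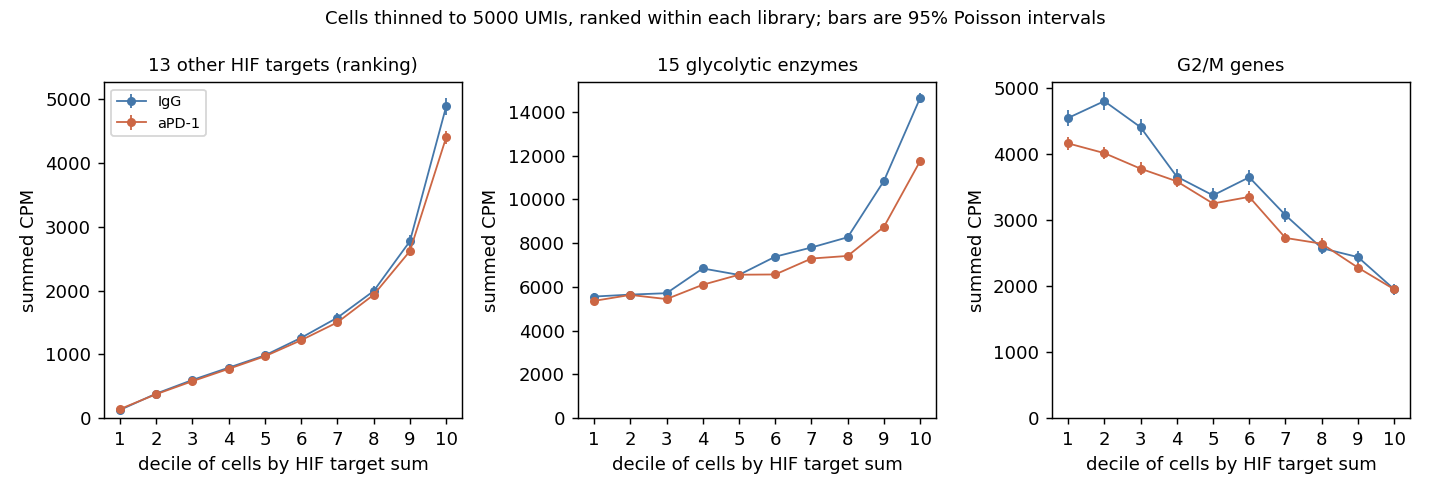
Summed CPM of the 13 other HIF targets that set the ranking, of the 15 glycolytic enzymes and of G2/M genes in deciles of cells, for both libraries, with 95% Poisson intervals as bars. Enzymes go from 5562 to 14644 CPM in IgG and from 5363 to 11758 CPM in aPD-1, with the libraries apart mainly in the top deciles, while G2/M genes go down.

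Gene by gene, 15 of the 19 members outside the ranking sum were at least 1.5-fold higher in the top decile than in the bottom decile of both libraries with intervals off 1, beside 4.81% of all 6967 genes. They were 12 of the 14 enzymes of at least 10 CPM, together with Slc2a1, Slc16a3 and Pdk1. None was 1.5-fold lower by the same rule, beside 8.3% of all genes. Each of the 11 HIF targets of at least 10 CPM, ranked by the sum of the others without itself, was also higher, which the functional choice of the list makes no independent result.

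The steepest HIF targets were Bnip3, Ankrd37, Ero1l and Car9. Bnip3 had 30.9 CPM in the lowest and 477 CPM in the highest decile in IgG, a ratio of 15.4 (10.9 to 22.5), and 14.0 (10.6 to 18.8) in aPD-1. Ankrd37 had ratios of 12.9 (8.92 to 19.2) and 13.3 (9.73 to 18.7), and Ero1l of 12.04 (9.66 to 15.2) and 12.4 (10.3 to 15.0). The intervals of the libraries overlapped for these 3 genes. Car9 had 0 UMIs in the lowest IgG decile and 118 UMIs in the highest, which makes it at least 39.5-fold higher against a floor of 3 counts over that decile, and it had a ratio of 26.8 (12.02 to 74.0) in aPD-1. P4ha2 was steeper in IgG (8.67, 5.38 to 14.8) than in aPD-1 (3.799, 2.57 to 5.76), but the intervals overlapped. The shallowest were Ddit4, at 2.36 (1.98 to 2.81) and 2.07 (1.75 to 2.44), and Vegfa, at 3.52 (2.44 to 5.18) and 2.32 (1.77 to 3.08).

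Of the enzymes, Pgk1 had the widest range along the axis, with 43.6 and 196 CPM in the outer deciles of IgG (ratio 4.50, 3.28 to 6.29) and 29.8 and 140 CPM in aPD-1 (4.69, 3.45 to 6.51). Pfkl followed at 4.44 (2.99 to 6.79) and 3.89 (2.65 to 5.86), and Aldoa at 4.42 (3.97 to 4.92) and 3.38 (3.10 to 3.69). Ldha and Pkm were flatter, at 2.60 (2.38 to 2.85) and 2.60 (2.39 to 2.84) in IgG and 2.06 (1.91 to 2.22) and 2.07 (1.91 to 2.24) in aPD-1. Gapdh was the flattest of the abundant enzymes at 2.33 (2.21 to 2.45) and 1.91 (1.84 to 1.99). Eno1 stood at 3.04 (2.72 to 3.40) and 2.43 (2.20 to 2.68). The intervals of the libraries lay apart, with the IgG ratio larger, for Aldoa, Gapdh, Eno1, Pkm and Ldha, and overlapped for Pgk1 and Pfkl. Slc2a1 was as steep as Pgk1, at 4.57 (2.86 to 7.61) and 6.70 (4.12 to 11.5).

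The remaining 4 members of at least 10 CPM did not pass this rule in both libraries. Hk2 was modestly higher in the top than in the bottom decile, at 1.43 (1.19 to 1.72) in IgG and 1.31 (1.09 to 1.56) in aPD-1, although it is a textbook HIF target. Pfkm had ratios of 1.09 (0.458 to 2.61) and 1.504 (0.799 to 2.90). Pfkfb3, likewise known as HIF-induced, had 20.9 CPM in the lowest and 10.96 CPM in the highest IgG decile (0.524, 0.238 to 1.10) and 14.9 and 6.57 CPM in aPD-1 (0.441, 0.196 to 0.930). The direction of Pfkfb3 was thus opposite to that of the 15 genes above, with an interval off 1 in aPD-1 but not in IgG. Hif1a was level at 0.986 (0.659 to 1.47) and 0.893 (0.614 to 1.30).

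Correlations between members were taken as Pearson r across cells of log-transformed thinned UMIs and describe cells that share a library and its free RNA. The summed enzymes and summed HIF targets had r of 0.449 over 2198 IgG cells and 0.404 over 3356 aPD-1 cells. Enzyme pairs had a median r of 0.191 in IgG and 0.123 in aPD-1 (91 pairs), pairs of HIF targets 0.151 and 0.114 (55 pairs), and pairs of an enzyme with a HIF target 0.116 and 0.0886 (154 pairs). Sparse counts hold r down. At 10000 UMIs per cell the enzyme to target median was 0.181 and 0.141, but only the 1937 IgG and 2938 aPD-1 cells of at least that depth remained. The set of cells thus changed along with the depth.

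The tightest pairs were abundant enzymes: Gapdh with Ldha (0.56 in IgG, 0.47 in aPD-1), Pkm with Ldha (0.55, 0.46) and Aldoa with Gapdh (0.52, 0.49). Bnip3 with Ero1l was the tightest pair of HIF targets (0.49, 0.47). Across the 2 blocks, Aldoa was the enzyme most tied to the HIF target sum, with r of 0.44 and 0.35, beside a 99th percentile over all genes of 0.154 and 0.165. Ero1l and Bnip3, each left out of its own sum, had r of 0.45 and 0.47 in IgG and 0.47 and 0.48 in aPD-1. Hif1a had r of -0.01 and -0.002, Pfkfb3 -0.03 and -0.04, and Hk2 0.08 in each library. The r of Hk2 lay at the 94.8th percentile of all genes in each library, while Hif1a and Pfkfb3 lay at or below the 54.6th. Hk2 was slightly below 0 against Ldha (-0.06, -0.09), and Pfkfb3 against Gapdh (-0.11, -0.07).

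Enzymes and HIF targets also differed in their relation to the cell cycle. The HIF target sum had r of -0.32 and -0.37 with summed S phase genes and -0.33 and -0.32 with G2/M genes. The enzyme sum had only -0.02 and -0.09 with S phase and -0.12 and -0.09 with G2/M genes. Aldoa was the exception among enzymes, at -0.26 and -0.25 with the joint cell cycle sum, while Ldha (-0.005, 0.05) and Pkm (-0.01, 0.01) were level. Original depth before thinning moved with both sums, with r of 0.21 for enzymes in each library and of -0.13 and -0.22 for HIF targets. The mitochondrial share of a cell had r of -0.19 in IgG and -0.33 in aPD-1 with the enzyme sum. With the HIF target sum it had -0.08 and -0.04. The part of depth and of mitochondrial share in these relations was not tested.

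**Figure D4:**
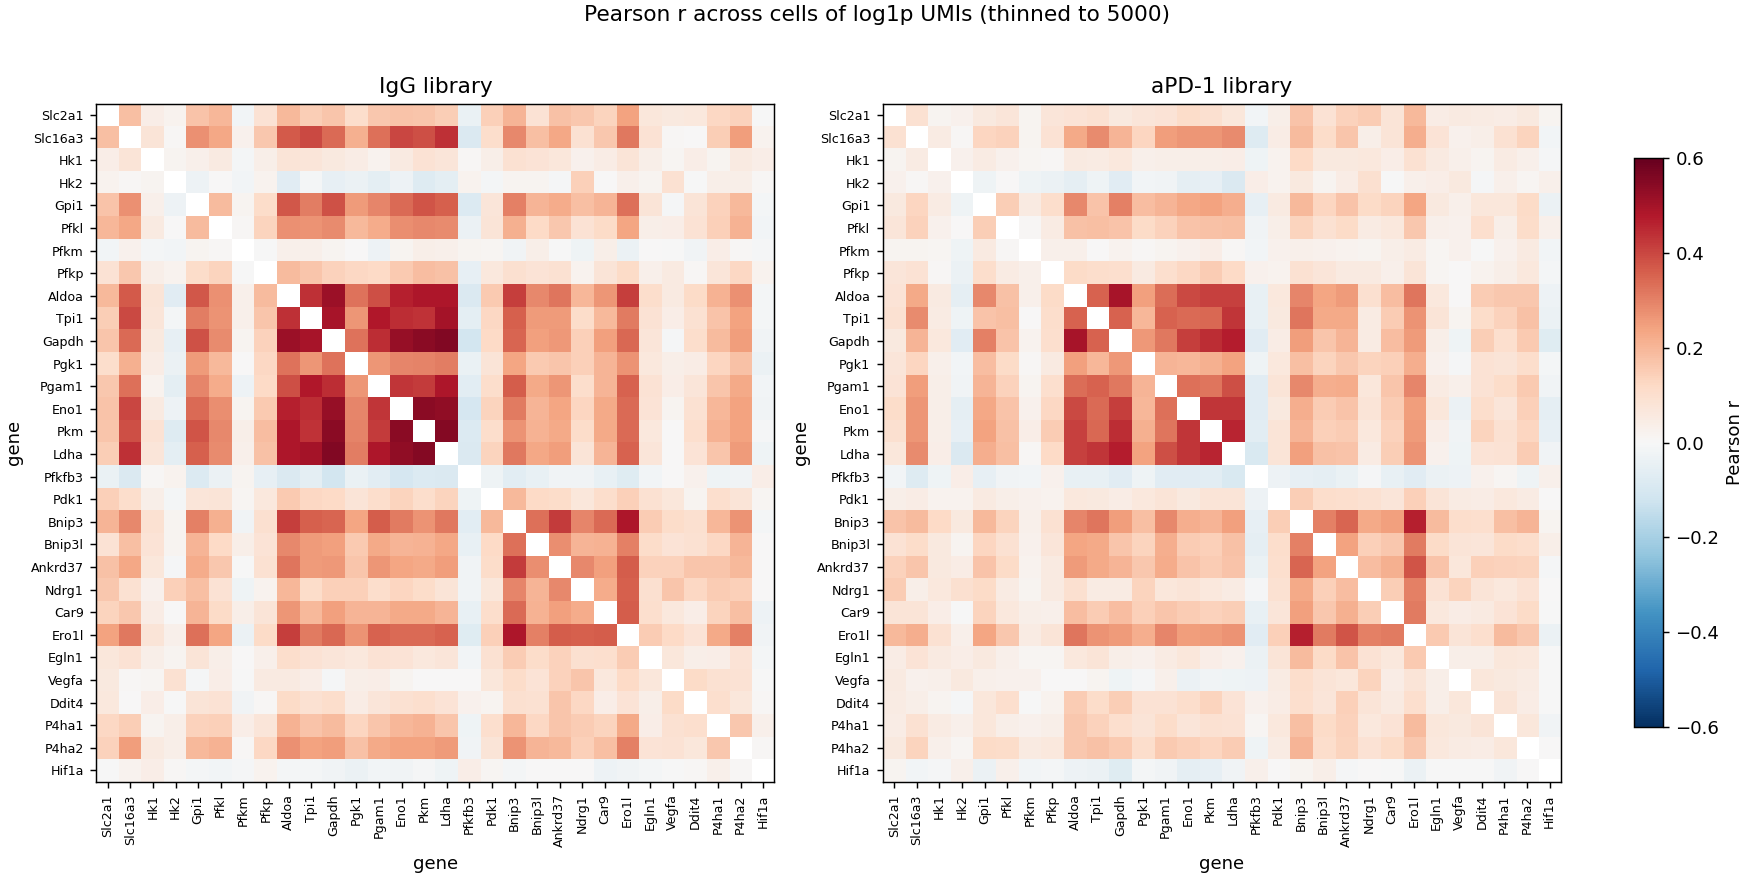
Pearson r across cells for each pair of the 30 members of at least 10 CPM, in each library. The dark block from Aldoa to Ldha is the abundant enzymes, the second block around Bnip3, Ankrd37 and Ero1l is the HIF targets, and Hk2, Pfkm, Pfkfb3 and Hif1a have low r with most other members.

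Spread between cells beyond counting noise was read from the variance over the mean (Fano factor) at 5000 UMIs, where 1 is pure counting noise. At the same relative spread the Fano factor is larger for an abundant gene. It therefore does not rank genes of unlike level, such as Gapdh (2784 CPM in IgG) and Ero1l (261 CPM), by how much cells differ. Gapdh (5.79 in IgG, 4.86 in aPD-1) and Ero1l (5.03, 4.17) had the highest values of the members, above the 99th percentile of all genes (4.27, 3.68). Pkm (3.62, 2.66) and Aldoa (3.58, 3.29) followed, and Ddit4, Ndrg1 and Ldha lay between 2.35 and 3.40. Hif1a (1.06, 1.04), Pdk1 (1.08, 1.03) and Pfkm (1.05, 1.004) were at the median of all genes (1.07, 1.06). For such rare transcripts a value near 1 does not show that cells are alike. Pdk1 was 2.49-fold higher (1.60 to 3.98) in the top than in the bottom HIF target decile of IgG. In aPD-1 it was 3.76-fold higher (2.46 to 5.93). Low counts also limit the correlations of these 3 genes.

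Genes outside the list that most resembled the HIF target sum were ranked among 6602 genes by r averaged over both libraries. Fam162a, a HIF-responsive mitochondrial gene, was first (0.44 in IgG, 0.45 in aPD-1), followed by Lgals3 (0.44, 0.44), the metallothioneins Mt1 (0.41, 0.38) and Mt2 (0.38, 0.37), Higd1a (0.38, 0.35), Malat1 (0.33, 0.39), Ftl1 (0.29, 0.39), Mif (0.32, 0.31), Btg1 (0.28, 0.33) and Klf4 (0.26, 0.34). At the other end stood H2afz (-0.34, -0.35), Hmgb1 (-0.33, -0.35), Ranbp1 (-0.29, -0.32), Lgals1 (-0.25, -0.33) and Hmgb2 (-0.29, -0.28). H2afz, Hmgb1 and Hmgb2 encode chromatin proteins abundant in dividing cells, and Hmgb2 is itself in the G2/M list. Their r with the cell cycle sum ranged from 0.61 to 0.83 in IgG.

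Cells of both libraries were also clustered together without any of these genes, since the mix of clusters differed between libraries. No correction for library was made, so cluster membership can itself follow the library. Of 9 clusters, 7 had at least 100 cells in each library. Cluster 2, led by Mt2 and Mt1, had the highest HIF target level, at 3446 CPM in IgG against 2516 CPM in aPD-1, and held 8.42% of IgG cells (7.29 to 9.66) but 18.7% of aPD-1 cells (17.4 to 20.04). A larger share of aPD-1 cells thus fell in the cluster richest in HIF target UMIs, with a lower level within it. Over all cells, those with 20 or more HIF target UMIs were not more frequent in aPD-1 (5.39%, against 6.60% in IgG). Of the top HIF target decile, 26.9% of IgG cells but 7.76% of aPD-1 cells lay in the Gsn-led cluster. How far the partition of cells set the share and level of cluster 2 was not tested. The Gsn-led cluster 4 had the most enzymes, at 11864 and 13183 CPM. Cluster 5, led by the DNA synthesis genes Rrm2 and Tyms, had high enzymes (9791 and 10594 CPM) with the lowest HIF targets in IgG (947.5 CPM, and 956 CPM in aPD-1), so a high enzyme level did not always come with high HIF targets.

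The enzyme difference between libraries turned with the cluster. Summed enzymes in aPD-1 stood at 0.739 times IgG (0.730 to 0.748) in cluster 2, near 1 in cluster 0, led by Spib and Mxd4 (1.004, 0.994 to 1.015), and in cluster 1, led by histone genes (0.978, 0.968 to 0.988), and above 1 in clusters 3 to 6 (1.04, 1.11, 1.08 and 1.10). The median log2 ratio over enzymes ranged from -0.41 in cluster 2 to 0.14 in cluster 4. The HIF target sum stood at 0.730 (0.714 to 0.746) in cluster 2, at 0.823 (0.787 to 0.861) in cluster 6, led by Mx1 and Gadd45a, and between 0.922 and 1.04 in the other 5. In cluster 0 the HIF target sum (0.943) and the median log2 ratio (0.13) lay on opposite sides of no difference. With the Gsn-led cluster left out of the whole comparison, the enzyme median was -0.12 and the count of lower members 4 in place of 8. The lower enzyme level of the aPD-1 library as a whole thus appeared in some clusters and not in others.

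**Figure D5:**
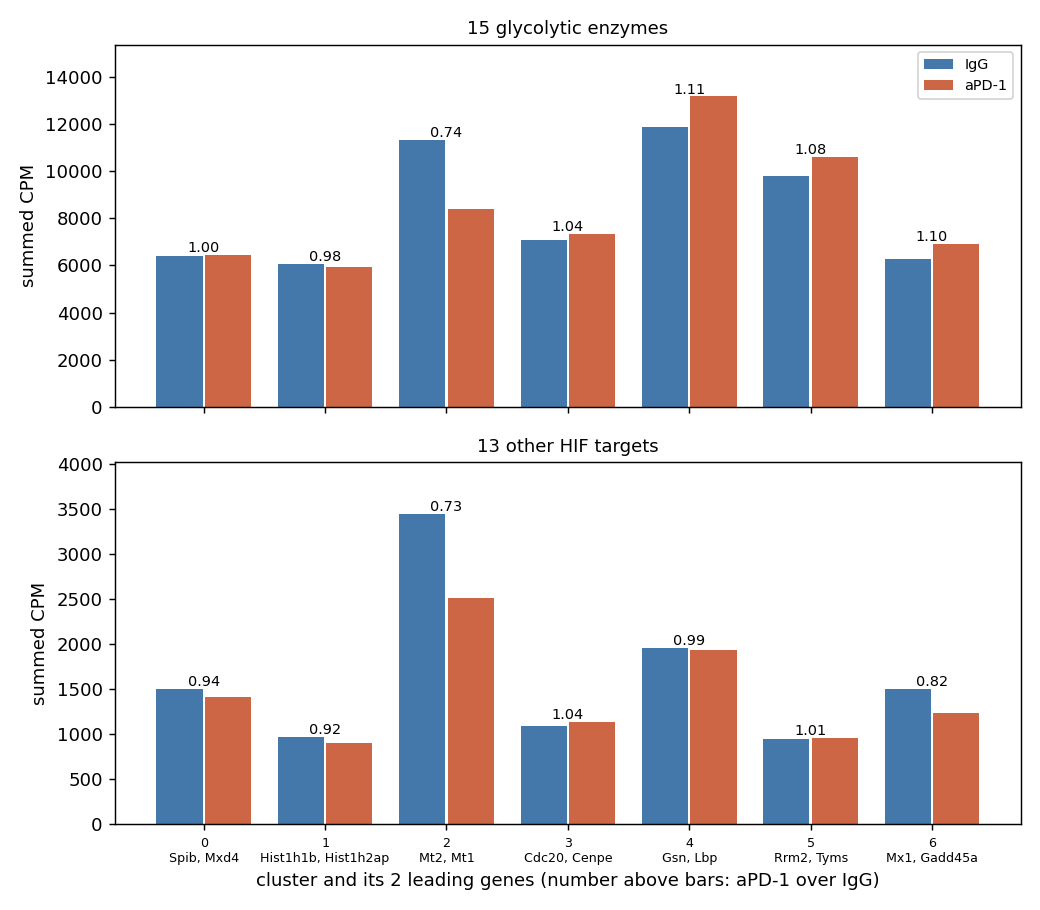
Summed CPM of the 15 enzymes and the 13 other HIF targets in the 7 clusters with at least 100 cells per library, with the ratio of aPD-1 over IgG above each pair of bars. The ratio is 0.74 for enzymes and 0.73 for HIF targets in cluster 2, and 1.11 and 0.99 in the Gsn-led cluster 4.

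Single genes differed in how they held across clusters. Below IgG in all 7 clusters were 4 of the 30 members (beside 11.5% of all genes), namely Hk2, Pfkfb3, P4ha2 and Hif1a. Above in all 7 was 1 of the 30, Egln1 (beside 5.61%). Neither count was far from the share of all genes. Hk2 was the firmest, with a ratio of 0.55 to 0.72 and an interval below 1 in each of the 7. Its level went from 269 to 193 CPM in cluster 0, where it was highest, and from 123 to 76.4 CPM in cluster 5, where it was lowest. P4ha2 had an interval below 1 in 4 clusters, Pfkfb3 in 3 and Hif1a in 1, and Egln1 had one above 1 in 2.

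Ddit4 was below IgG in 6 of 7 clusters, each with an interval below 1, from 0.526 in cluster 2 to 0.881 in cluster 3, while cluster 5 stood at 1.02 (0.944 to 1.10). Pkm was below in 5 clusters, from 0.642 (0.618 to 0.667) in cluster 2 to 0.951 in cluster 5, and above in the Gsn-led cluster (1.07, 1.04 to 1.10). Gapdh, level over all cells, was above IgG in 6 of 7 clusters, up to 1.23 (1.19 to 1.27) in cluster 6, and below in cluster 2 (0.790, 0.774 to 0.807). Its ratio near 1 over all cells thus covered differences in opposite directions. Aldoa ranged from 0.669 (0.646 to 0.693) in cluster 2 to 1.19 (1.15 to 1.24) in cluster 5, and Ero1l from 0.665 (0.638 to 0.693) in cluster 2 to 1.43 (1.30 to 1.58) in cluster 3, led by mitotic genes. P4ha2, one of the leading genes of the Gsn-led cluster, had 103 and 100 CPM there, and its ratio over all other cells was 0.769.

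The rest of the pathway was read from 3 further lists. Of 42 other genes of glucose metabolism found in the files, 20 reached 10 CPM, of which 5 were at least 1.25-fold lower in aPD-1 (25%, against 17.2% of all genes) and 0 higher (against 3.9%). They were Pgm2 (0.794, 0.763 to 0.825), Ugp2, which makes UDP-glucose (0.686, 0.649 to 0.726), Ldhb (0.732, 0.696 to 0.769) and the pentose phosphate enzymes Tkt (0.757, 0.731 to 0.784) and Taldo1 (0.775, 0.743 to 0.808). Of 47 other hypoxia genes, 30 reached 10 CPM, with 4 lower (13.3%, against 17.2%) and 5 higher (16.7%, against 3.9%). The most extreme were Rsbn1 (1.65, 1.59 to 1.73), Angptl4 (0.666, 0.603 to 0.735), Bhlhe41 (0.690, 0.659 to 0.723) and Wsb1 (0.698, 0.662 to 0.737). The others past the limit, named after their values were seen, were the lipid droplet gene Hilpda (1.36, 1.28 to 1.44), Ier3 (1.32, 1.29 to 1.35), the creatine transporter Slc6a8 (1.31, 1.19 to 1.43), Fam162a (1.26, 1.24 to 1.29) and the heme oxygenase Hmox1 (0.758, 0.731 to 0.786). Not all of these genes followed the HIF target sum across cells. Of the higher genes, Fam162a had r of 0.44 in IgG and 0.45 in aPD-1, and Hilpda 0.15 and 0.10. Rsbn1, Ier3 and Slc6a8 lay between -0.01 and 0.05. Of the lower genes, Hmox1 had 0.14 in each library, Bhlhe41 0.10 and 0.11, Wsb1 0.02 and 0.03, and Angptl4 -0.03 and -0.06. Of 9 oxygen sensing genes, 6 reached 10 CPM and none passed the rule, with Cul2 (0.814, 0.741 to 0.894) and Rbx1 (0.823, 0.808 to 0.838) of the ubiquitin ligase lowest and Hif1an (1.14, 1.05 to 1.25), an asparagine hydroxylase of HIF, highest.

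Free RNA from broken cells can add UMIs to every droplet, and it could be read for aPD-1 alone, from 515790 barcodes under 100 UMIs. In them the enzymes summed to 8021 CPM, beside 7456 CPM in cells, and the HIF targets to 977 CPM, beside 1334 CPM in cells. Of the single genes, Hk2 had 75.3 CPM in free RNA and 138 CPM in cells, Ero1l 163 and 256 CPM, and Pkm 969 and 785 CPM. The IgG matrix held no barcode under 100 UMIs, so the part of free RNA in the difference between libraries was not tested.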

How the data were processed

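Droplet-based 3′ single-cell RNA libraries of sorted MC38 tumour cells, 1 for IgG and 1 for aPD-1, were analysed. The values are UMI counts per gene and cell barcode as the authors deposited them. Reads were counted with Cell Ranger (version 3.0.2 per the file headers) against mm10, and Seurat 2.1.0 was used later, both per the submitters' processing notes. The gene models counted are not stated in the labels or headers used here. The IgG matrix lists 4351 barcodes, none under 100 UMIs, and the aPD-1 matrix 737280, mostly near empty; both were filtered alike here at 5000 UMIs and 10% mitochondrial UMIs. No doublet caller was run. Leaving out cells above 3 times the median UMIs was tried in its place.

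Counts were summed per library and divided by all UMIs to give CPM. Ratios carry exact conditional binomial intervals, levels exact Poisson intervals and shares Clopper-Pearson intervals, all at 95% and covering counting error only. Log2 ratios used a pseudocount of 1 CPM, so low genes are understated. For comparisons between cells, each cell was thinned to 5000 UMIs with a fixed seed, and no cell was left out by this. Cells of both libraries were clustered together with scanpy 1.11.5 and leidenalg 0.10.2 (2000 variable genes, 30 components, resolution 0.5). The members and the other pathway lists were left out, and no correction for library was made. Clusters are described by their 10 leading genes. The ratio, thinning and correlation steps were tested on simulated data. Promoter windows came from RefSeq. Cells are not replicates, so no test across groups and no p-value was computed. The members, gene lists and rules were chosen with earlier results of these data known. All 35 members are named; beside them, the 10 genes with the highest and the 5 with the lowest correlation with the HIF target sum, and up to 4 genes of each other pathway list with the most extreme ratio, and any further gene past the fold limit. Symbols of the other lists that matched no gene name were not analysed here.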

Additional observations from a re-analysis of the deposited data

Results flagged for a closer look

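The aPD-1 barcodes under 100 UMIs, which no comparison above uses as cells, held RNA of these genes: the summed glycolytic enzymes stood at 8021 CPM and the summed other HIF targets at 977 CPM.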

How the results depend on the processing

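No paired analysis was possible because each group is 1 library and the comparison comes from no test. The enzyme median log2 ratio of -0.21 came to -0.11 without ribosomal and mitochondrial genes in the denominator, -0.12 with the median of all genes set to 0, -0.12 without the Gsn-led cluster, between -0.41 and 0.14 in the clusters, and between -0.336 (decile 9) and -0.0733 (decile 2) within deciles by HIF targets, with -0.305 in the top decile. The HIF target median of -0.07 came to 0.0257 and 0.0253 under these scalings and ranged from -0.44 to 0.13 in the clusters. The count of lower members was 4 in place of 8 under both scalings and without the Gsn-led cluster (Hk2, Pfkfb3, Ddit4 and P4ha2 left). The count of higher members was 0 with a floor of 10000 UMIs or at most 5% mitochondrial UMIs, and 2 with ribosomal and mitochondrial genes left out. The cause of these moves was not tested.

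The log2 contrast of enzymes along HIF targets was 1.45, 1.503, 1.68 and 1.20 in IgG, beside 1.40, when cells were thinned to 10000 UMIs, when Ddit4 and Ndrg1 were left out, in cells low in cell cycle genes and without the Gsn-led cluster. In aPD-1 it was 1.24, 1.20, 1.36 and 1.05 under the same changes and 1.09 with z-scores, beside 1.13. The enzyme to target median r was 0.181 in IgG and 0.141 in aPD-1 at 10000 UMIs, and 0.164 in IgG without Ddit4 and Ndrg1. Thinning to 10000 UMIs kept only cells of at least that depth. Leaving out Gapdh (-0.23) or Ddit4 (-0.06), chosen after seeing the data, left the medians near -0.21 and -0.07. The HIF target sum without Ddit4 moved from 0.909 to 0.989 times the IgG level. Depth limits Slc2a3, Aldoc and Adm most, with 9 to 37 UMIs per library.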
